A study of Rattus norvegicus with 151 samples.

Results

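The responses of liver and kidney to the highest dose of PPH were compared gene by gene, to see which transcripts changed in both organs, in the liver only, in the kidney only or in opposite directions. PPH (propylene glycol phenyl ether) is a glycol ether solvent that was present in the tank behind the West Virginia chemical spill. Rats were male Harlan Sprague-Dawley animals, 6 to 8 weeks old, that were dosed by gavage once daily on 5 days in a row, and the controls of all comparisons received the corn oil vehicle alone (0 mg/kg). Messenger RNA of whole liver and kidney pieces was measured on Affymetrix rat expression arrays, with 1 array per tissue sample, and all values are log2 values. The comparison rested on 18 of the 151 arrays of the series, chosen by tissue and dose: 5 vehicle and 4 1000 mg/kg livers, and 5 vehicle and 4 1000 mg/kg kidneys. The groups at 500 mg/kg, with 4 livers and 3 kidneys, are given as a second dose. Each gene was read from the same probe set in both tissues, and 11684 genes were tested.

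Liver and kidney clear foreign compounds by overlapping means. Hepatocytes oxidise, reduce, hydrolyse and conjugate a compound and export the product to bile or blood, and tubule cells take conjugates from the blood, process them further and pass them to the urine. Sensor proteins such as Nrf2, CAR and PXR raise the genes of these enzymes when reactive or foreign compounds enter the cell. Both organs divide slowly in the young adult, so that transcripts of the mitotic machinery come from a small share of cells.

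The tissue labels were borne out by marker genes. The summed level of 9 hepatocyte markers lay between 16.97 and 17.11 in the livers and between 7.40 and 8.48 in the kidneys, and that of 10 kidney epithelium markers lay between 15.85 and 15.98 in the kidneys and between 8.23 and 8.49 in the livers (log2 of the sum). Array medians lay between 5.26 and 5.36. The signal of the 5' beta-actin control probe set minus that of the 3' one, a sign of RNA integrity, spread from −3.07 to −2.34 in vehicle kidneys and from −2.54 to −2.37 in treated kidneys, against −1.27 to −1.11 and −1.20 to −1.07 in the livers. Vehicle kidney PPH-206 had the highest mean log2 value of 9 fat cell markers, 7.41, and vehicle kidney PPH-205 the next, 6.72, with the other kidneys from 6.25 up. By the summed level the order turned, with 12.82 and 12.99 in these kidneys and 13.05 to 13.61 in the others. Pck1, an enzyme of gluconeogenesis in liver and kidney as well as a fat cell gene, made up 78.7% to 93.5% of that sum in the kidneys, and without it PPH-206 had the highest sum, 10.59, and PPH-205, at 9.76, the next among the vehicle kidneys. The labels number the samples and do not state their further origin, so that p-values measure the spread between these samples. In these bulk samples, fewer cells of a type and less RNA per cell cannot be told apart.

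Few genes passed the test of the difference between the organs, and none moved in opposite directions with both changes called. limma called 141 genes higher (1.21% of those tested) and 76 lower (0.65%) in liver, together 1.86%, and 162 in kidney (1.39%, 63 higher or 0.539% and 99 lower or 0.847%) at an adjusted p under 0.05, and 83 and 81 of them changed by at least 1.5-fold. The liver change minus the kidney change was called for 31 genes (0.265%), with 20 higher (0.171%) and 11 lower (0.0941%), 25 of them measured above the filter in both organs. The other 6 were Adh7, Klrg1, Nrcam, Sult2a6, Ugt2b34l1 and Ptgs2. For these, 1 organ had fewer than 3 arrays above the filter value of 4.67, the 40th percentile of all values. A change there could be missed, although some falls at such levels were called, as for Ccna2 in liver. The class of these 6 genes describes 1 organ. With the sample number that livers and kidneys share as a random block, 73 differences were called, with 35 liver-only and 21 kidney-only genes, and as a fixed block 13 (5 in common with the 31). A gene was termed shared when it was called in both tissues in the same direction, whatever the test of the difference gave. In this fit the lowest adjusted p of the difference among shared genes was 0.0543 (limma). Liver-only or kidney-only genes were called in 1 tissue, with the difference called too. After a further quantile normalization, 16 differences were higher and 15 lower, and the share of higher genes among the liver calls went from 65% to 54.5%. There were 24 shared genes (5 risen, 19 fallen), 20 liver-only genes (15 risen, 5 fallen), 10 kidney-only genes (6 risen, 4 fallen) and 0 opposite genes. At an unadjusted p under 0.05 limma gave 1498 of the 11684 genes for the difference, 1728 for the liver change and 1480 for the kidney change. The shared genes were 11.1% of the liver calls and 14.8% of the kidney calls.

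The larger part of the calls could not be assigned. Of 355 genes called in either organ, 301 were called in 1 organ with a difference that did not pass, 173 in liver and 128 in kidney. Of those measured in both organs, 69% of the liver genes and 75.2% of the kidney genes had estimates of the same sign in the organs. Of the liver-only and kidney-only genes 15 and 9 were measured in both organs, and the 95% interval of the other organ's change lay within 1.5-fold for 14 and 9 of them, and for 85.2% and 82.3% of the unassigned liver and kidney genes so measured. For the shared genes, the interval of the difference itself lay within 1.5-fold for 8 of 24, so that for the other 16 equal size was not shown. Over all genes tested the median change was 0.02 in liver, −0.02 in kidney and 0.05 for the difference.

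**Figure D1:**
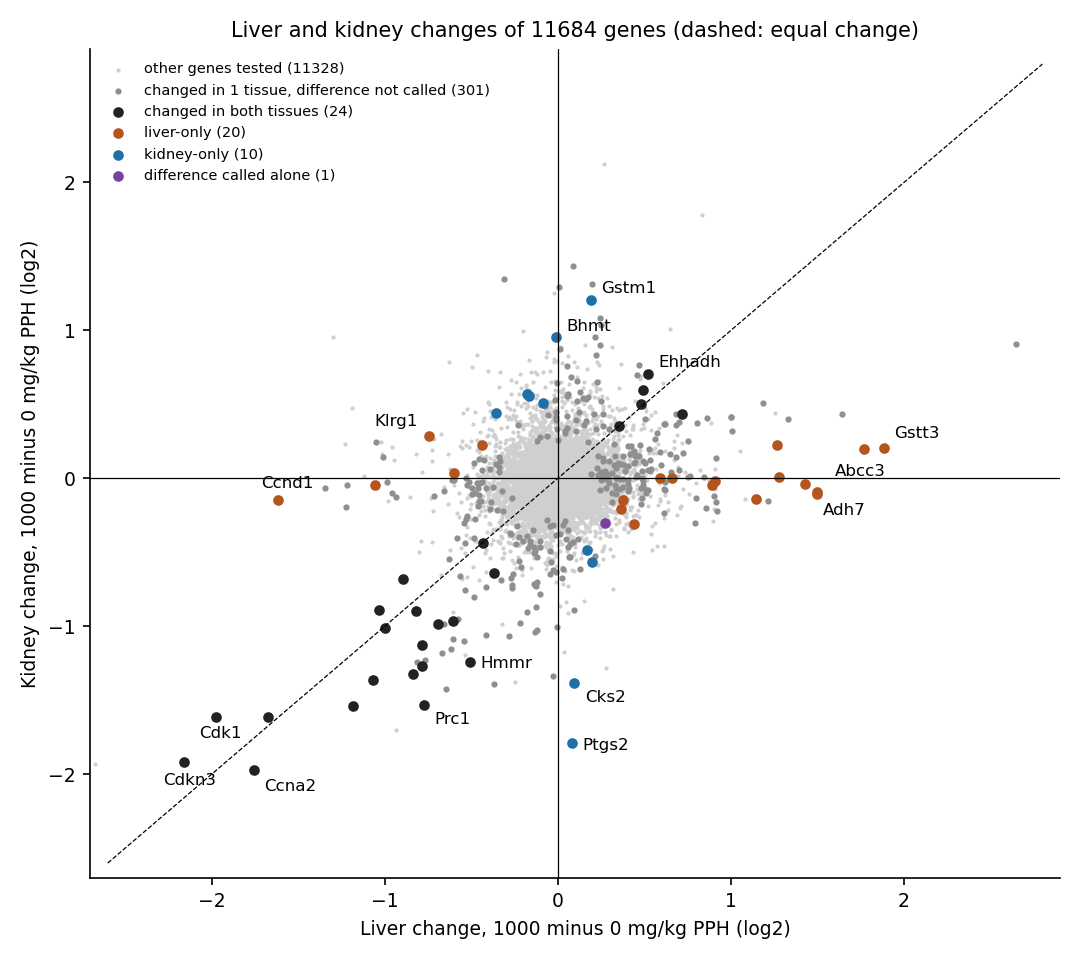
Each point is 1 of 11684 genes, with the liver change (x axis) and the kidney change (y axis) between 1000 and 0 mg/kg PPH in log2 units. The 24 shared genes (black) lie on the same side of 0 in both organs, 19 of them in the lower left, some of them away from the dashed line of equal change, and the 20 liver-only (orange) and 10 kidney-only (blue) genes lie near the axis of the organ that changed.

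Counts of differences depended on single arrays, while the shared falls did so less. The count of 31 was 13, 7, 17 and 7 without vehicle kidney PPH-202, PPH-203, PPH-205 or PPH-206, 10, 11 and 5 without treated kidney PPH-233, PPH-234 or PPH-236, 12, 17 and 13 without vehicle liver PPH-202, PPH-203 or PPH-206, and 6 and 12 without treated liver PPH-236 or PPH-237. The liver calls, 1.86% of genes, numbered 89 and 136 without treated livers PPH-236 and PPH-237, and the kidney count of 162 was 83 without treated kidney PPH-236 and 282 without vehicle kidney PPH-208. The shared fallen genes numbered between 11, without treated liver PPH-236, and 20. Of the 19 in the main fit, 9 kept their liver call and 16 their kidney call whichever array was left out. Without vehicle kidneys PPH-205 and PPH-206 together, 8 differences, 181 liver calls and 70 kidney calls were left, and 16 genes were shared and fallen. Of the 25 differences measured in both organs, those of Gstt3, Cks2 and Ces2c were called in each of the 18 fits that omit 1 array.

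The shared falls included 8 genes of the cell cycle list. Cdk1 and its partners cyclin A2 (Ccna2) and cyclin B2 (Ccnb2), which drive cells into mitosis, fell in both organs, as did Cdkn3, a phosphatase that acts on cyclin-dependent kinases, and Mki67, the proliferation antigen of the cell nucleus. Of 34 cell cycle genes tested, 9 fell in liver and 19 in kidney, beside 0.65% and 0.847% of all genes, and 8 fell in both. The medians of the list were −0.25 in liver and −0.68 in kidney, beside 0.02 and −0.02 over all genes tested, and −0.26 and −0.62 over the 27 and 33 members measured in the organ. No member passed limma's test of the difference, with 9 at an unadjusted p under 0.05. With 1 array left out, the falls numbered between 6 and 11 in liver and between 14 and 20 in kidney, and without vehicle kidneys PPH-205 and PPH-206 they numbered 9 and 13.

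Cdk1 stood at 5.86, 5.97, 6.00, 6.27 and 6.42 in the 5 vehicle livers and at 3.77, 4.06, 4.16 and 4.51 in the 4 treated livers. In kidney it stood at 6.99, 7.10, 7.28, 7.53 and 7.81 with vehicle and at 5.41, 5.69, 5.72 and 6.09 with PPH. The treated arrays lay below the vehicle arrays without overlap in each organ. Cdk1 fell 3.94-fold in liver (−1.98 ± 0.18 log2 units, SE, adjusted p = 1.12e-05, limma) and 3.06-fold in kidney (−1.61 ± 0.18, adjusted p = 7.15e-05). The difference of −0.36 had a 95% interval of −0.89 to 0.17.

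The 19 shared fallen genes had no overlap between treated and vehicle arrays in either organ, where 5.85% of all genes tested had none in liver and 5.27% in kidney. The rule had already asked for calls in both organs, so that this is a description. Cdkn3 was at −2.16 in liver and −1.92 in kidney, Ccna2 at −1.76 and −1.97, Ccnb2 at −1.67 and −1.61, and Mki67 at −1.18 and −1.54, all called. Ube2c, a ubiquitin-conjugating enzyme of the anaphase-promoting complex, fell by 1.00 and 1.01. Ect2 and Racgap1, which place the cleavage furrow, were at −1.07 and −0.82 in liver and at −1.36 and −0.90 in kidney. A second probe set of Racgap1 gave −0.11 in liver and −0.69 in kidney. Mki67, Ccna2 and Hmmr exceeded the filter value in fewer than 3 of the 9 livers, so that their liver levels are near the lower end of what the arrays measure.

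Some shared genes fell further in kidney by their estimates, with differences that did not pass. Prc1, which bundles microtubules between separating chromosomes, was at −0.77 in liver and −1.53 in kidney (difference 0.76 ± 0.24, SE, adjusted p = 0.194). Hmmr, a spindle protein, fell by 1.24 in kidney, and its liver arrays lay near the lower end. Top2a, the topoisomerase that untangles DNA, was at −0.84 and −1.32, and Pclaf, a partner of the replication clamp, at −0.79 and −1.27. Spc25 of the kinetochore, the securin gene Pttg1, the chromosome kinesin Kif22 and Cdca2 fell in both organs too. They fell by 0.37 to 0.79 in liver and by 0.64 to 1.13 in kidney. The liver call of Cdca2 passed in 3 of 18 fits with 1 array left out. Its second probe set gave −0.14 in liver and −0.31 in kidney. The remaining shared falls were Nrep (−1.03 and −0.89), Slpi, an inhibitor of leukocyte proteases (−0.90 and −0.68), and Tent5a (−0.43 and −0.44), whose other probe sets gave 0.11 and 0.14 in kidney.

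The kidney called 11 members of the list that the liver did not. Among them were the replication genes Mcm4 (0.07 in liver, −0.53 in kidney), Mcm6 (−0.03 and −0.62) and the clamp Pcna (0.03 and −0.32), with adjusted p of the difference of 0.113, 0.17 and 0.133. The mitotic kinesin Kif11 was called in liver (−0.71), where its means lay below the filter value, and was at −0.12 in kidney. Along with these falls, 2 of 12 fibroblast markers fell in kidney (Col1a1 −0.72 and Col3a1 −0.65) and 0 in liver. Estimates were above 0 for 1 of the 12 in kidney and 6 in liver (medians −0.15 and −0.04). Of 11 macrophage markers 1 was called in kidney (Adgre1 −0.80) and 0 in liver, but the list was as low in liver by its estimates. The macrophage medians were −0.14 in kidney and −0.175 in liver, with 1 of 11 above 0 in each organ. Over all genes, 0.847% were called lower in kidney and 0.65% in liver. The summed fibroblast markers lay between 11.66 and 12.05 in vehicle and 11.48 and 11.71 in treated kidneys, and the summed macrophage markers between 10.26 and 10.49 and between 9.98 and 10.26. In the livers the summed fibroblast markers lay between 11.76 and 12.18 and between 11.61 and 12.04, and the summed macrophage markers between 12.46 and 12.81 and between 12.55 and 12.77. Of 9 endothelial markers 0 were called in either organ, and their summed level lay between 11.56 and 11.74 in vehicle and 11.46 and 11.54 in treated kidneys, without overlap, and between 11.70 and 11.85 and 11.68 and 11.76 in the livers. Of 7 fat cell markers tested 0 were called in either organ, and the summed level of the 9 on the array was higher in every treated kidney (13.29 to 13.61) than in every vehicle kidney (12.82 to 13.25). Without Pck1 the kidney groups overlapped (9.43 to 10.10 against 9.41 to 10.59). The summed fat cell markers lay between 13.07 and 13.40 in vehicle and 12.39 and 13.10 in treated livers. The part of these cell types in the falls was not tested.

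**Figure D2:**
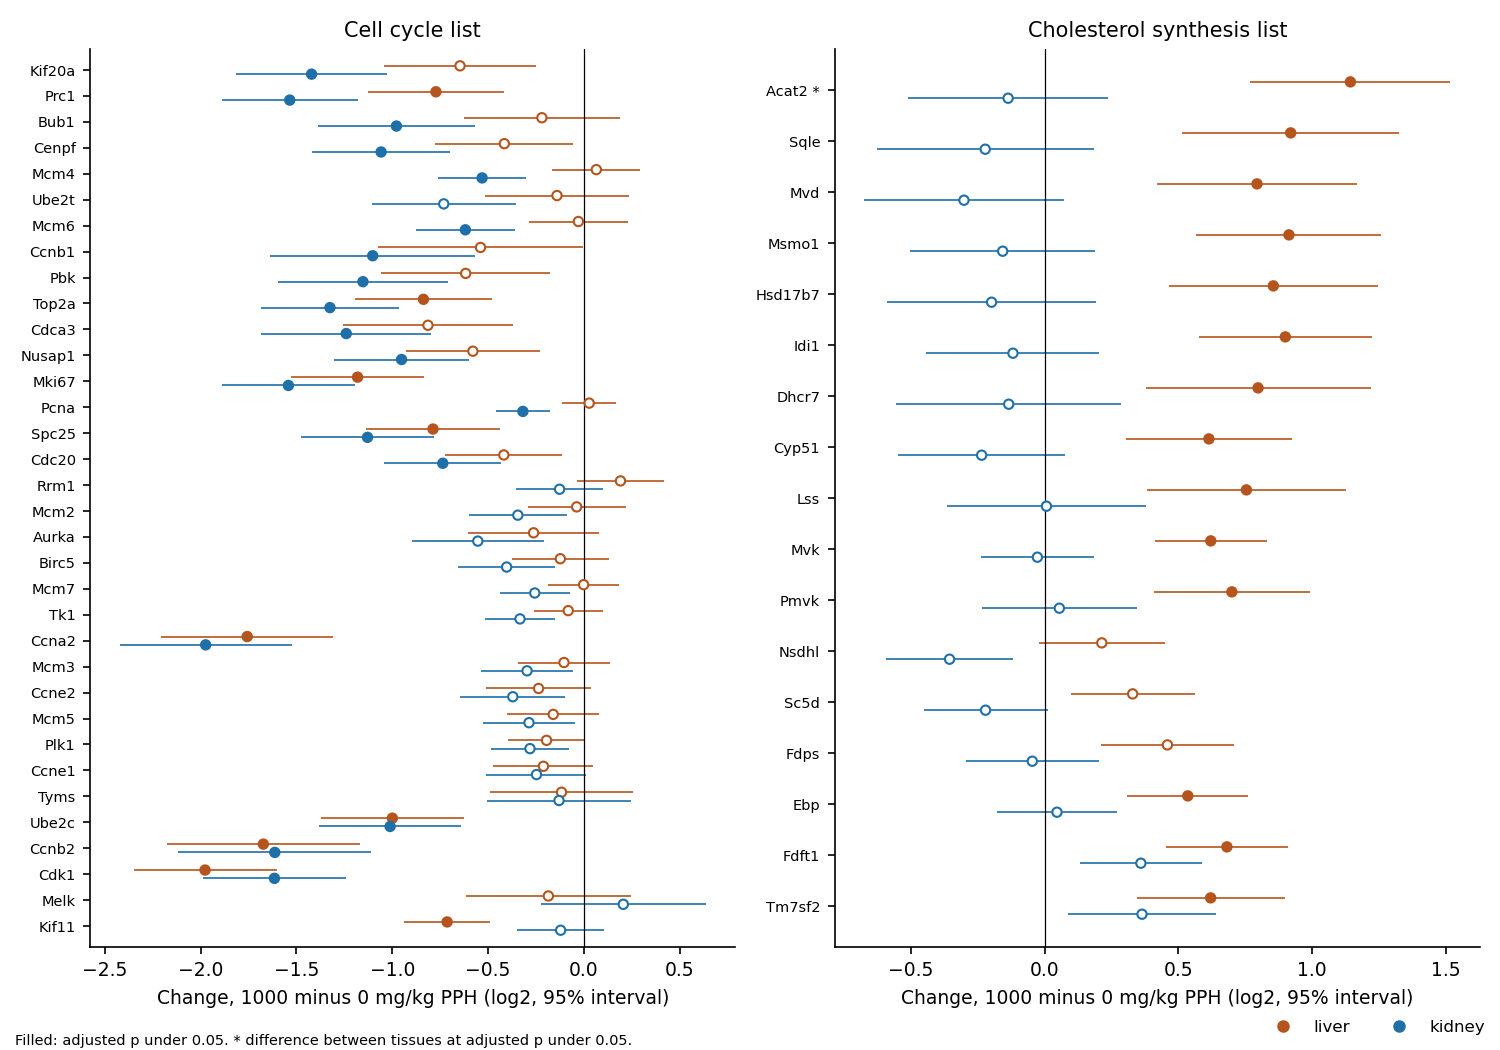
Liver (orange) and kidney (blue) changes between 1000 and 0 mg/kg PPH, in log2 units with 95% intervals, for the 34 cell cycle genes (left) and the 17 cholesterol synthesis genes (right), ordered by the difference between the organs. Most cell cycle genes lie to the left of 0 in both organs, with 9 called in liver and 19 in kidney (filled), while 14 cholesterol genes are called in liver and 0 in kidney.

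Cks2, which encodes a small subunit of the Cdk1 complex and was not in the list, fell in kidney and not in liver by the test. It stood at 7.24, 7.45, 7.47, 7.67 and 8.09 in vehicle kidneys and at 6.02, 6.17, 6.26 and 6.36 in treated kidneys. In liver it stood at 7.75, 7.85, 7.90, 7.90 and 7.96 with vehicle and at 7.71, 7.93, 7.98 and 8.25 with PPH. The kidney groups were apart and the liver groups overlapped. Cks2 fell 2.61-fold in kidney (−1.38 ± 0.13 log2 units, SE, adjusted p = 3.31e-05, limma) and was at 0.09 ± 0.13 in liver (adjusted p = 0.804), with a difference of 1.48 (95% interval 1.08 to 1.88, adjusted p = 0.00238). Its difference passed in 29 of 29 alternative fits.

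The promoters of these genes are shown because the genes moved together. Many genes of the later cell cycle carry a short element with the letters TTTGAA, the cell cycle genes homology region, beside CCAAT boxes, which bind the factor NF-Y. RefSeq promoters (GRCr8) were searched on both strands over 250 bases before the start, and both motifs were chosen after the changes were known. TTTGAA was found in 11 of the 14 shared fallen genes that had a promoter sequence and in 11.0% of 9731 tested genes, and CCAAT in 12 of 14 and in 36.9%. Of 29 cell cycle list genes with a promoter, 9 held TTTGAA and 22 held CCAAT. Below, capitals mark TTTGAA or CCAAT on either strand (TTCAAA and ATTGG on the strand shown), and in Mki67 a TTTGAA and a reversed CCAAT share a base. Cdk1 (chr20:19265043-19265292, plus strand) and, on the minus strand, Ccnb2 (chr8:79981659-79981908) and Mki67 (chr1:199952594-199952843) fell in both organs, and Cks2 (chr17:13727520-13727769, minus strand) fell in kidney only.
Cdk1: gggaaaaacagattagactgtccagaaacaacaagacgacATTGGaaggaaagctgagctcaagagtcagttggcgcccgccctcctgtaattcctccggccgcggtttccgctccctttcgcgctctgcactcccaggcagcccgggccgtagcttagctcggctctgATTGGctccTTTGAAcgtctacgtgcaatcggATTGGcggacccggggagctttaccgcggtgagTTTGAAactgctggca
Ccnb2: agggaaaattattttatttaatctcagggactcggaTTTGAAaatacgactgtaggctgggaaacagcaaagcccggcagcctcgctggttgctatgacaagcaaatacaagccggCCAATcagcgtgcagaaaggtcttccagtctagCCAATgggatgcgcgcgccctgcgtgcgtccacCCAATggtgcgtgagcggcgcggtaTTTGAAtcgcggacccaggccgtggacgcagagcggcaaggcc
Mki67: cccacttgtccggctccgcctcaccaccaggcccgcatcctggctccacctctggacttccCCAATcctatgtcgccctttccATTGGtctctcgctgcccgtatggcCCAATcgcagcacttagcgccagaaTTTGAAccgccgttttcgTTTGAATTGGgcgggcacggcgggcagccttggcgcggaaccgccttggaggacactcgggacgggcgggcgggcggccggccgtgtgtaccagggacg
Cks2: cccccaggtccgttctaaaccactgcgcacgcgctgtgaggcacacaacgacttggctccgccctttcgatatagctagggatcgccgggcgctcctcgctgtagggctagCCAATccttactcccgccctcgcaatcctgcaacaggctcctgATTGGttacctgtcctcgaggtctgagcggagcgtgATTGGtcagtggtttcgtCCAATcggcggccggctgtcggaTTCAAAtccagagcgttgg

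Cks2 held both motifs, with a reversed TTTGAA from 19 to 14 bases before the start and 4 CCAAT boxes, as Cdk1, Ccnb2 and Mki67 held 2 TTTGAA each and 3, 3 and 4 CCAAT boxes. A match describes letters and is no sign of binding. TTTGAA was also found in 2 of 5 kidney-only risen genes with a promoter, and in 1 of 4 kidney-only fallen genes, which was Cks2.

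Shared rises were few and small. Ehhadh, the peroxisomal bifunctional enzyme of fatty acid oxidation and a known target of PPAR-alpha, stood at 10.68, 10.81, 10.97, 11.03 and 11.12 in vehicle livers and 11.17, 11.28, 11.55 and 11.79 in treated livers. In kidney it stood at 10.04, 10.05, 10.09, 10.09 and 10.11 with vehicle and at 10.49, 10.80, 10.85 and 10.99 with PPH. Groups were apart in both organs. Ehhadh rose 1.44-fold in liver (adjusted p = 0.0309, limma) and 1.63-fold in kidney (adjusted p = 0.00369), with a difference of −0.18 (95% interval −0.54 to 0.17). Its liver call passed in 13 of 18 fits with 1 array left out, and its kidney call in 18.

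Gstp1, the pi class glutathione transferase, rose 1.41-fold in liver, from 8.87, 8.88, 8.93, 9.03 and 9.06 to 9.23, 9.33, 9.46 and 9.77. In kidney it rose 1.52-fold, from 11.50, 11.80, 11.83, 11.91 and 12.07 to 12.28, 12.38, 12.46 and 12.56, and its groups were apart in both organs. The liver call of Gstp1 passed in 13 of 18 fits with 1 array left out, and its kidney call in 18. The other shared rises were Prodh, the first enzyme of proline breakdown (0.48 and 0.50), the exoribonuclease Eri2 (0.72 and 0.43) and the spermine synthase Sms (0.35 and 0.35). Their kidney calls passed in 12, 9 and 6 of the 18 fits with 1 array left out, and the count of shared rises lay between 1 and 6 over those fits. Eri2 and Prodh each had another probe set, with kidney estimates of −0.108 and −0.00396, so that their kidney rise rests on 1 of 2 probe sets.

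Of 39 fatty acid oxidation genes tested, 3 rose in liver (Ehhadh, Decr2 0.48 and Eci1 0.50) and 3 in kidney (Ehhadh, Decr1 0.52 and the acyl-CoA dehydrogenase Acadm 0.28), beside 1.21% and 0.539% of all genes, with list medians of 0.03 and 0.11, beside 0.02 and −0.02. Decr2, a peroxisomal reductase of unsaturated fatty acids, was at −0.17 in kidney (difference 0.66 ± 0.14, SE, adjusted p = 0.0522), and Acadm was at −0.10 in liver (difference −0.38 ± 0.08, adjusted p = 0.0534). Neither difference passed, and Decr1, the mitochondrial counterpart of Decr2, was at 0.25 in liver.

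Of the 15 liver-only rises the largest was that of Gstt3, a theta class glutathione transferase. It stood at 8.84, 8.94, 8.99, 9.23 and 9.30 in vehicle livers and at 10.69, 10.99, 11.01 and 11.07 in treated livers. In kidney, where its level was higher to begin with, it stood at 11.34, 11.41, 11.44, 11.45 and 11.63 with vehicle and at 11.52, 11.58, 11.76 and 11.77 with PPH. The liver groups were apart by over 1 unit and the kidney groups overlapped. Gstt3 rose 3.69-fold in liver (1.88 ± 0.10 log2 units, SE, adjusted p = 5.58e-09, limma) and was at 0.20 ± 0.10 in kidney (adjusted p = 0.426). The difference of 1.68 (95% interval 1.38 to 1.98, adjusted p = 1.11e-05) passed in 29 of 29 alternative fits.

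Abcc3, which exports bile acids and glucuronides from the hepatocyte to the blood, rose 3.42-fold in liver. It stood at 4.86, 5.09, 5.39, 5.51 and 6.09 in vehicle livers and at 6.65, 7.13, 7.33 and 7.53 in treated livers. In kidney it stood at 5.85, 6.01, 6.06, 6.07 and 6.17 with vehicle and at 6.13, 6.19, 6.28 and 6.32 with PPH, so that treated livers lay above all kidneys and vehicle livers, except the highest, below the vehicle kidney mean of 6.03. The kidney change was 0.20 ± 0.19 (SE), and the difference 1.57 (95% interval 1.01 to 2.14, adjusted p = 0.0251, limma), which passed in 13 of 18 fits with 1 array left out.

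Ces2c, a carboxylesterase, had vehicle means of 7.51 in liver and 7.46 in kidney and was higher in treated livers. Its vehicle livers stood at 7.34, 7.37, 7.50, 7.53 and 7.80 and its vehicle kidneys at 7.33, 7.37, 7.50, 7.50 and 7.60. Treated livers stood at 8.53, 8.54, 8.73 and 9.34 and treated kidneys at 7.23, 7.36, 7.46 and 7.80. It rose 2.42-fold in liver against a kidney change of 0.01 ± 0.15 (SE), a difference of 1.27 (adjusted p = 0.0222, limma). Akr7a3, an aldehyde reductase known for aflatoxin, rose 2.4-fold in liver, from a mean of 10.49 to 11.75, below its vehicle kidney mean of 12.24. The difference of Akr7a3 passed in 5 of 18 fits with 1 array left out.

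Acsm2, an acyl-CoA synthetase of medium-chain acids that feeds glycine conjugation, was a kidney gene by its level. It stood at 12.89, 12.92, 12.93, 13.05 and 13.13 in vehicle kidneys and 12.85, 12.90, 13 and 13.02 in treated kidneys. In liver it stood at 6.14, 6.19, 6.64, 7.16 and 7.25 with vehicle and at 7.83, 7.84, 8.20 and 8.53 with PPH, so that it rose 2.69-fold and stayed far below the kidney (difference of changes 1.47, adjusted p = 0.0423, limma, passing in 5 of 18 fits with 1 array left out). With vehicle, 5 of the 15 liver-only risen genes had a higher mean in kidney than in liver, among them Gstt3, Akr7a3, Acsm2 and Abcc3.

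For some liver-only genes the kidney lay below the filter value, where a kidney change could be missed. Adh7, an alcohol dehydrogenase that also oxidises retinol, stood at 5.68, 5.77, 6.10, 6.35 and 6.42 in vehicle livers and at 7.18, 7.61, 7.71 and 7.75 in treated livers, and between 2.99 and 3.47 in all kidneys. It rose 2.83-fold in liver (adjusted p = 5.33e-05, limma). Sult2a6, a hydroxysteroid sulfotransferase, rose 2.83-fold in liver, from a mean of 8.99 to 10.49, with a kidney mean of 4.02 with vehicle. At 500 mg/kg its liver estimate was below 0, at −0.62 (adjusted p = 0.336, limma). The difference of Sult2a6 at 1000 mg/kg passed in 3 of 18 fits with 1 array left out. The glucuronosyltransferase Ugt2b34l1 rose 1.85-fold, with a vehicle kidney mean of 3.82, and its difference passed in 6 of these 18 fits. Pir, an iron-binding nuclear protein known as a target of Nrf2, rose 1.88-fold and was measured in both organs (kidney −0.02), and its difference passed in 3 of the 18 fits. The smaller liver-only rises were the sorting protein Pacs2 (0.44), the secreted kinase Pkdcc (0.38) and the reductase Dhrs1 (0.36), whose differences passed in 2, 3 and 5 of 18 fits with 1 array left out. A second probe set of Pacs2, with a mean level of 4.43, gave 0.02 in liver and −0.33 in kidney.

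**Figure D3:**
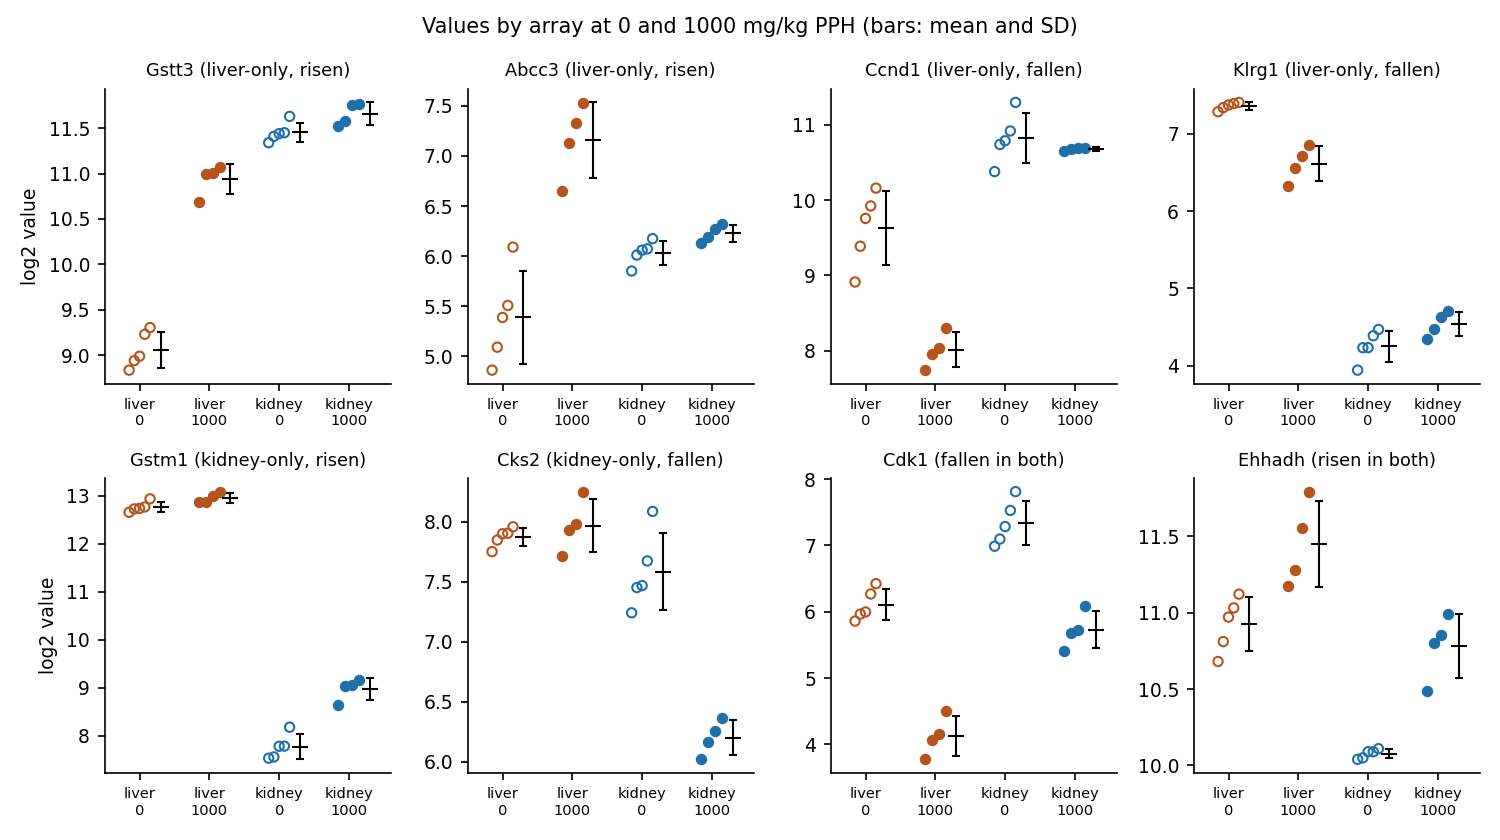
Log2 values of 8 genes in every array of the 4 groups (open circles 0 mg/kg, filled circles 1000 mg/kg, orange liver, blue kidney), with the mean and SD of each group beside the points. Gstt3 and Abcc3 rise and Ccnd1 falls in liver only, Klrg1 falls in liver and lies near or below the filter value of 4.67 in kidney, Gstm1 rises and Cks2 falls in kidney only, and Cdk1 and Ehhadh move in both organs.

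Cholesterol synthesis genes rose in liver and not in kidney by the counts. The pathway makes cholesterol from acetyl-CoA by way of mevalonate and squalene and is raised as a block when cells sense low sterol. Of 17 genes tested, 14 rose in liver and 0 in kidney by limma, beside 1.21% and 0.539% of all genes. In either direction, 16 and 3 had an unadjusted p under 0.05, beside 1728 and 1480 of the 11684 genes tested. The medians were 0.70 and −0.13, beside 0.02 and −0.02 over all genes. The 14 rose between 1.45- and 2.21-fold, 9 of them had a kidney estimate below 0, and their kidney estimates lay between −0.30 and 0.36. Treated and vehicle livers were apart for 13 of the 14, beside 5.85% of all genes, and treated and vehicle kidneys for 0, beside 5.27%. The estimated difference was above 0 for all 17 and its unadjusted 95% interval for 15, with a median of 0.75 beside 0.05 over all genes, and 1 passed the adjusted test. The liver count of 14 rested in part on 1 array: without treated liver PPH-236 it was 5, and between 10 and 14 without any other array. Without vehicle kidneys PPH-205 and PPH-206 it was 13. The 1 called difference became 6 without vehicle liver PPH-208, 3 without vehicle liver PPH-203, 2 without treated liver PPH-233, and 0 without vehicle livers PPH-202 or PPH-206, treated livers PPH-236 or PPH-237, or any 1 kidney array but vehicle kidney PPH-208.

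That member was Acat2, the thiolase that opens the pathway. It stood at 8.19, 8.89, 9.03, 9.14 and 9.17 in vehicle livers and at 9.66, 9.81, 10.21 and 10.44 in treated livers. In kidney it stood at 7.38, 7.43, 7.61, 7.75 and 7.76 with vehicle and at 7.36, 7.43, 7.46 and 7.55 with PPH, with overlap. The difference was 1.28 ± 0.25 (SE, adjusted p = 0.0423, limma), and passed in 6 of 18 fits with 1 array left out. The isomerase Idi1 (0.90 in liver, −0.12 in kidney, adjusted p of the difference 0.0522), the mevalonate kinase Mvk (0.62, −0.03, 0.0534) and the sterol oxidase Msmo1 (0.91, −0.16, 0.0534) came near the threshold. The squalene epoxidase Sqle was at 0.92 and −0.22, and Mvd, the decarboxylase of the mevalonate branch, at 0.79 and −0.30.

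Fdft1, the squalene synthase, and the sterol reductase Tm7sf2 were nearest to a like change, with 0.68 and 0.62 in liver and 0.36 and 0.36 in kidney. Outside the list, Erg28, a scaffold of the sterol enzymes in the endoplasmic reticulum, and Tmem97, a sterol-regulated membrane protein, were liver-only rises, with 0.66 and 0.59 in liver and kidney changes that rounded to 0 (difference adjusted p 0.0425 and 0.0483, limma). The differences of Erg28 and Tmem97 passed in 3 and 5 of 18 fits with 1 array left out. Of 12 genes of sterol sensing, uptake and export, 0 were called by limma in either organ (medians 0.03 and −0.04). At an unadjusted p under 0.05 there were 3 in liver and 1 in kidney, beside 1728 and 1480 of the 11684 genes tested.

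Of the glutathione transferases, 3 of 20 changed differently in the organs by the test, beside 0.265% of all genes. These enzymes join glutathione to reactive compounds, and the rat has several classes of them. Of 20 tested, 4 rose in liver and 5 in kidney, beside 1.21% and 0.539% of all genes, and Gstp1 was shared. The list median was 0.20 in each organ, beside 0.02 and −0.02 over all genes. The difference was called for Gstt3, higher in liver, and for Gstm1 and Gstz1, higher in kidney. The kidney count of 5 was 3 without treated kidney PPH-236 and 3 without vehicle kidneys PPH-205 and PPH-206. The 3 called differences became 1 without treated kidney PPH-236.

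Gstm1, a mu class member, was an abundant liver transcript that rose in kidney. It stood at 7.53, 7.56, 7.78, 7.78 and 8.18 in vehicle kidneys and at 8.65, 9.03, 9.05 and 9.16 in treated kidneys. In liver it stood at 12.66, 12.73, 12.74, 12.77 and 12.94 with vehicle and at 12.88, 12.88, 12.99 and 13.09 with PPH, with overlap. Gstm1 rose 2.31-fold in kidney (1.21 ± 0.12 log2 units, SE, adjusted p = 3.31e-05, limma) and was at 0.19 ± 0.12 in liver. The difference of −1.02 (95% interval −1.37 to −0.66, adjusted p = 0.0222) passed in 17 of 18 fits with 1 array left out and had an adjusted p of 0.0574 without treated kidney PPH-236. Gstz1, which also breaks down tyrosine metabolites, rose 1.42-fold in kidney and was at −0.08 in liver (adjusted p of the difference 0.0423).

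Gsta3, an alpha class member, had the largest estimate in liver, and its difference did not pass. It rose 6.27-fold in liver, from 5.50, 6.37, 7.12, 7.35 and 7.53 to 9.23, 9.24, 9.54 and 9.68. In kidney it stood at 5.96, 6.20, 6.45, 6.65 and 6.65 with vehicle and at 7.17, 7.28, 7.31 and 7.41 with PPH, apart as well, with an adjusted p of 0.158 for the change of 0.91, and the difference was 1.74 ± 0.41 (SE, adjusted p = 0.0815, limma). Gstt1 was at 0.53 in liver and 0.20 in kidney, and Gstm2 at 0.46 and 0.70, called in liver and in kidney respectively. Members of 1 class are alike in sequence, so that a probe set may also read a close relative.

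**Figure D4:**
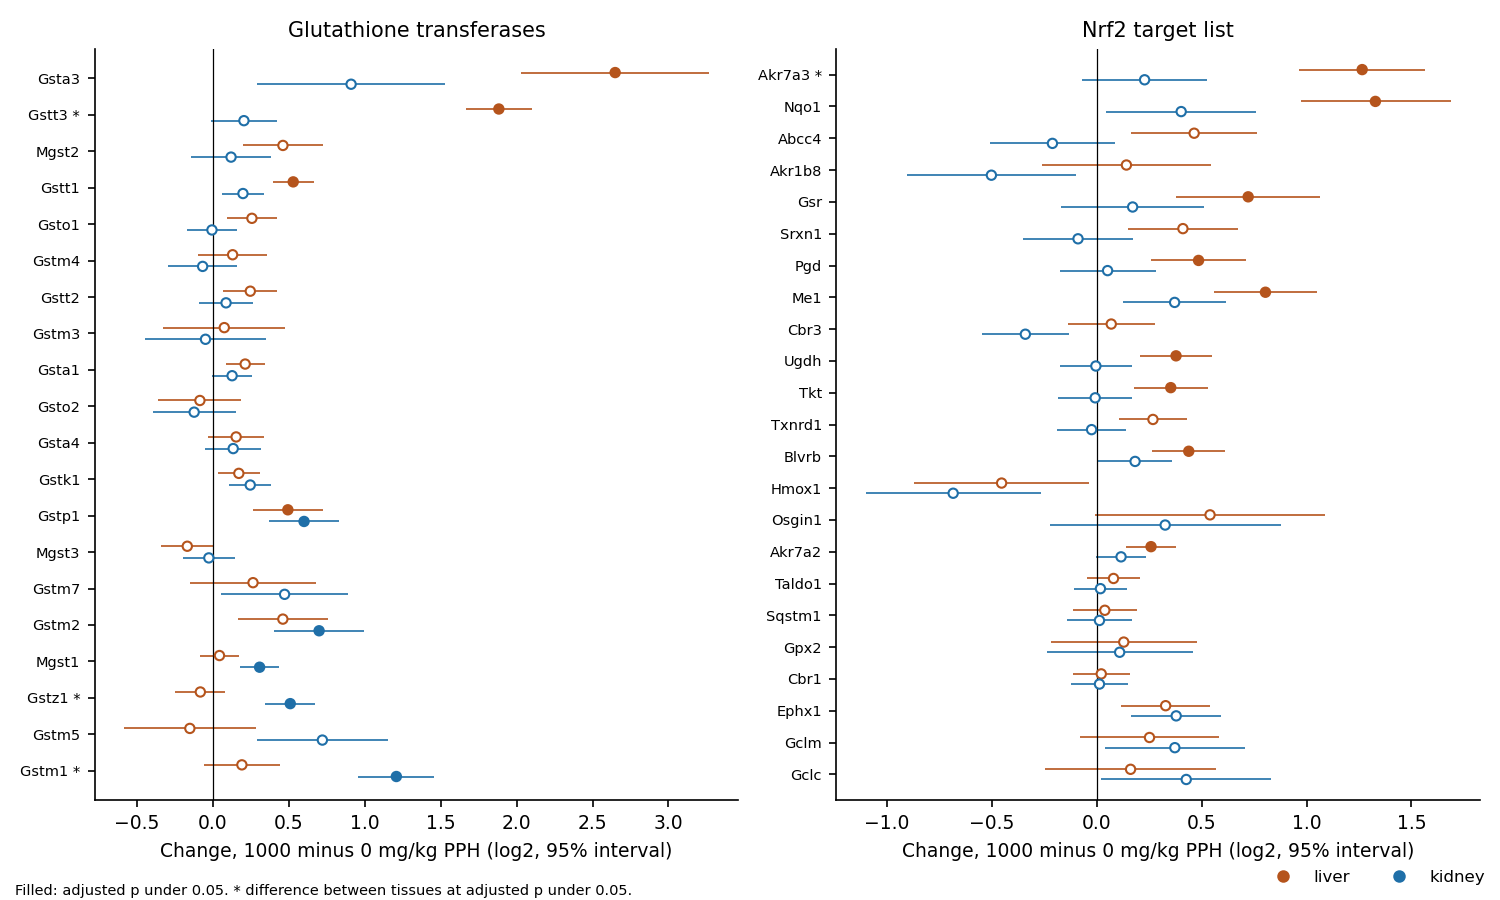
Liver (orange) and kidney (blue) changes between 1000 and 0 mg/kg PPH, in log2 units with 95% intervals, for the 20 glutathione transferases (left) and the 23 Nrf2 targets (right), ordered by the difference between the organs. Gstt3, below Gsta3 near the top of the left panel, and Gstm1, at its foot, differ in opposite directions, and 9 Nrf2 targets are called in liver (filled) and 0 in kidney.

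Nrf2 is the factor that raises antioxidant genes under oxidant stress. Of 23 tested, 9 rose in liver and 0 in kidney by limma, beside 1.21% and 0.539% of all genes. In either direction, 14 and 9 had an unadjusted p under 0.05, beside 1728 and 1480 of the 11684 genes tested. The kidney estimates lay between −0.68 and 0.43. The medians were 0.33 and 0.05, beside 0.02 and −0.02 over all genes. The member with a called difference was Akr7a3 (1.04, adjusted p = 0.0423, limma). The liver count of 9 was 5 without vehicle liver PPH-202, 4 without treated liver PPH-236 and 4 without treated liver PPH-237. The quinone reductase Nqo1 rose 2.51-fold in liver and was at 0.40 ± 0.17 (SE) in kidney (difference 0.93, 95% interval 0.42 to 1.43, adjusted p = 0.113). The malic enzyme Me1 was at 0.80 and 0.37, the glutathione reductase Gsr at 0.72 and 0.17, and the transketolase Tkt at 0.35 and −0.01. Gclc and Gclm, the subunits of the enzyme that makes glutathione, were at 0.16 and 0.25 in liver and 0.43 and 0.37 in kidney and were called in neither.

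The letters TGACNNNGC, the core of the antioxidant response element that binds Nrf2, were searched in the same 250 bases on both strands. They were found in 13.3% of the 9731 tested genes with a promoter and in 6 of 21 Nrf2 list genes. The motif was chosen after the changes were known. Gstp1 (chr1:210769706-210769955, minus strand) and Pir (chrX:33851050-33851299, minus strand) are printed because they held the motif and differed in class, shared for Gstp1 and liver-only for Pir. The class of Pir was less firm, since its difference passed in 3 of 18 fits with 1 array left out. Capitals mark the motif (for Pir as its reverse complement).
Gstp1: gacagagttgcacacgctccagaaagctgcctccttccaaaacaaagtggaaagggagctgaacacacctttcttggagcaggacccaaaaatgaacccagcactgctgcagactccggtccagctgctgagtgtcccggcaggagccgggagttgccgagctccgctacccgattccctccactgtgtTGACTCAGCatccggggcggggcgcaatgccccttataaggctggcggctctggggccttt
Pir: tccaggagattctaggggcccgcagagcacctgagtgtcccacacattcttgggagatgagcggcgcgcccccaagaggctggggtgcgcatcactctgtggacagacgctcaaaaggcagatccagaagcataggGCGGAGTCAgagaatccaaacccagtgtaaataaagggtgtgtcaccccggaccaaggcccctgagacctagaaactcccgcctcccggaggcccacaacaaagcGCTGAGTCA

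Gstp1 held 1 match, from 61 to 53 bases before the start, and Pir held 2, the nearer from 9 to 1. Pir was the 1 of 14 liver-only risen genes with a promoter sequence to hold these letters in this window.

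Of the other lists of foreign compound metabolism, CAR and PXR targets had 4 of 21 called higher in liver by limma (median 0.30). Of the 21, 0 were called in kidney, and the shares called higher over all genes were 1.21% and 0.539%. In either direction, 11 and 3 of the 21 had an unadjusted p under 0.05, beside 1728 and 1480 of the 11684 genes tested. In kidney 12 of the 21 were measured, with a median of 0.03. The members were Abcc3, Ces2c, the retinal dehydrogenase Aldh1a1 (0.58) and the cytochrome P450 Cyp3a23-3a1 (0.84), which lay below the filter value in kidney. Among 23 other conjugation enzymes 4 rose in liver and 1, the sulfotransferase Sult1a1, in kidney (0.83, with 0.22 in liver, adjusted p of the difference 0.159). Among 19 alcohol and aldehyde dehydrogenases 3 rose in liver and 0 in kidney by limma. In either direction, 10 and 6 had an unadjusted p under 0.05, beside the same 1728 and 1480 of all genes tested. Liver estimates were above 0 for 8 of the 19, with a median of −0.04 and a range from −1.3 to 1.5. The differences ran from −2.25 to 1.6. Aldh1l1, a folate enzyme, was at 0.61 and 0.37 (adjusted p 0.00118 and 0.0537, limma).

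The liver-only falls were led by Ccnd1, cyclin D1, which starts the cell cycle in answer to growth signals. It stood at 8.91, 9.39, 9.76, 9.92 and 10.16 in vehicle livers and at 7.74, 7.95, 8.04 and 8.31 in treated livers. In kidney it stood at 10.38, 10.74, 10.79, 10.92 and 11.30 with vehicle and at 10.65, 10.68, 10.69 and 10.70 with PPH. The liver groups were apart, and the treated kidneys lay within the range of the vehicle kidneys. Ccnd1 fell 3.07-fold in liver (−1.62 ± 0.20 log2 units, SE, adjusted p = 0.000322, limma), and the difference was −1.47 (95% interval −2.07 to −0.87, adjusted p = 0.0423). The call of the difference passed in 3 of 18 fits with 1 array left out. All 3 of its probe sets gave a liver fall, between −1.62 and −1.34, and a kidney change between −0.15 and −0.06.

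Klrg1, an inhibitory receptor of natural killer and T cells, stood at 7.29, 7.34, 7.37, 7.39 and 7.41 in vehicle livers and at 6.33, 6.56, 6.72 and 6.85 in treated livers. In kidney it lay below or near the filter value, at 3.94, 4.23, 4.23, 4.39 and 4.47 with vehicle and at 4.34, 4.48, 4.63 and 4.70 with PPH. It fell 1.68-fold in liver (−0.74 ± 0.11 log2 units, SE, adjusted p = 0.00108, limma). Of 9 lymphocyte markers 1 fell in liver (Ms4a1, −0.48), beside 0.65% of all genes. The summed level of the 10 markers on the array lay between 8.52 and 8.70 in vehicle and 8.39 and 8.71 in treated livers. Their part in the fall of Klrg1 was not tested. The adhesion molecule gene Nrcam (−1.05 in liver, below the filter value in kidney), the membrane receptor Paqr9 (−0.60 and 0.04) and Ccdc191 (−0.44 and 0.23) were the other liver-only falls. Differences of Nrcam, Paqr9 and Ccdc191 passed in 6, 5 and 7 of 18 fits with 1 array left out.

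The kidney-only rises were, except for Enpp5, genes with a higher level in liver. Bhmt, which makes methionine from homocysteine with betaine, stood at 5.29, 5.30, 5.71, 5.72 and 5.83 in vehicle kidneys and at 6.27, 6.41, 6.44 and 6.98 in treated kidneys. In liver it stood at 11.67, 11.70, 11.77, 11.94 and 11.97 with vehicle and at 11.70, 11.74, 11.77 and 12 with PPH. The kidney groups were apart and the liver groups overlapped, and Bhmt rose 1.94-fold in kidney (difference −0.96 ± 0.20, SE, adjusted p = 0.046, limma, passing in 3 of 18 fits with 1 array left out). C8g, a chain of complement component C8, rose 1.49-fold in kidney from a mean of 6.70, with a vehicle liver mean of 12.30. Papss2, which makes the sulfate donor for sulfotransferases, rose 1.36-fold in kidney and was at −0.36 in liver (adjusted p = 0.0694). Enpp5 rose 1.47-fold from a kidney mean of 10.53. The differences of C8g, Papss2, Enpp5 and Gstz1 passed in 7, 14, 11 and 7 of the 18 fits.

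Markers of hepatocytes, the main liver cell, were also measured in kidney. Of 9, 6 had an estimate above 0 in kidney (median 0.09) and 4 were measured above the filter there, Cyp2c11, Alb (albumin), Apob and Ttr, the last 3 at 0.05, −0.23 and −0.29. The other 5 were between −0.02 and 0.13. By the test 1 rose, Cyp2c11, a male-specific cytochrome P450, from 4.93, 5.84, 5.88, 6.50 and 6.63 to 6.98, 7.17, 7.43 and 7.62 (adjusted p = 0.00971, limma), while it was at −0.31 in liver (difference −1.65, adjusted p = 0.0534). Means of Alb, the carbamoyl phosphate synthetase Cps1 and Ahsg, a secreted liver protein, lay at 4.40, 2.72 and 3.82 in vehicle kidneys and at 4.45, 2.83 and 3.80 in treated kidneys, all below the filter value. The summed level of the list, which includes Cyp2c11, lay between 7.40 and 7.98 in vehicle and between 7.96 and 8.48 in treated kidneys. The mean log2 values of the list overlapped more widely, from 3.98 to 4.32 with vehicle and from 4.05 to 4.61 with PPH. The part of these markers in the kidney-only rises was not tested.

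The kidney-only falls were led by Ptgs2, the inducible cyclooxygenase, which in kidney is known from the macula densa and the medullary interstitium. It stood at 5.74, 6.47, 6.49, 7.06 and 7.12 in vehicle kidneys and at 4.29, 4.79, 4.98 and 5.08 in treated kidneys, without overlap. In liver it lay between 2.65 and 3.52, below the filter value. Ptgs2 fell 3.46-fold in kidney (−1.79 ± 0.24 log2 units, SE, adjusted p = 0.000565, limma), and a liver change could be missed at that level. Tlr4, the receptor of bacterial lipopolysaccharide, fell 1.48-fold in kidney and was at 0.20 in liver (adjusted p of the difference 0.0313), and the RNA-editing enzyme Apobec1 fell 1.4-fold and was at 0.17. Differences of Ptgs2, Tlr4 and Apobec1 passed in 10, 9 and 3 of 18 fits with 1 array left out. The falls of Tlr4 and Apobec1 stood beside those of the 2 fibroblast markers and 1 macrophage marker called in kidney, given above, whose part was not tested. The complement gene C3 was near the threshold of a kidney-only fall (−0.64 in kidney, −0.01 in liver, adjusted p of the difference 0.0522).

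Of the 25 called differences measured in both organs, 17 had estimates of opposite sign with at least 1 organ called, and in none were both called. Mapk8ip1, a scaffold of the JNK pathway, was the single gene with a called difference and no call in either organ (0.27 in liver, adjusted p = 0.0911, and −0.30 in kidney, adjusted p = 0.0724, with 0.0423 for the difference, limma). Its second probe set gave −0.01 and −0.15.

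At 500 mg/kg, limma called 146 genes in liver (1.25%, of these 1.14% higher and 0.111% lower), 2 in kidney (0.0171%, 1 higher and 1 lower, 0.00856% each) and 2 differences (0.0171%), with 3 kidney arrays. These comparisons use the same vehicle arrays as those at 1000 mg/kg, so the values are set side by side only. The differences called were Gstt3 (1.28 in liver, 0.24 in kidney, difference 1.03, adjusted p = 0.0117) and Cks2 (0.33, −0.84, 1.17, adjusted p = 0.0318). The count of 2 was 1 without vehicle kidney PPH-203 or PPH-206 or vehicle liver PPH-202, PPH-205, PPH-206 or PPH-208, or without kidney PPH-232 or liver PPH-231 of the 500 mg/kg groups, and 0 without kidney PPH-230 or liver PPH-232. Differences of Abcc3, Ces2c and Ccnd1 were 0.40, 0.23 and −0.45 at 500 mg/kg, against 1.57, 1.27 and −1.47 at 1000 mg/kg. Of the 31 differences called at 1000 mg/kg, 30 had the same sign at 500 mg/kg. The exception was Sult2a6, at −0.68 (adjusted p = 0.777, limma) against 1.59.

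Of the 19 shared fallen genes, 0 were called at 500 mg/kg in either organ, and at an unadjusted p under 0.05 limma gave 1594 genes in liver and 503 in kidney at that dose. Cdk1 was at −0.86 in kidney (adjusted p = 0.908, limma) with an adjusted p of 0.999 in liver, and the medians of the 34 cell cycle genes were 0.09, with Rrm1 called higher in liver, and −0.355. The medians of the 17 cholesterol synthesis genes were 0.355 in liver, with 2 risen, and 0.07 in kidney, with 0 called. Of 23 Nrf2 targets 7 rose in liver at 500 mg/kg and 0 were called in kidney.

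**Figure D5:**
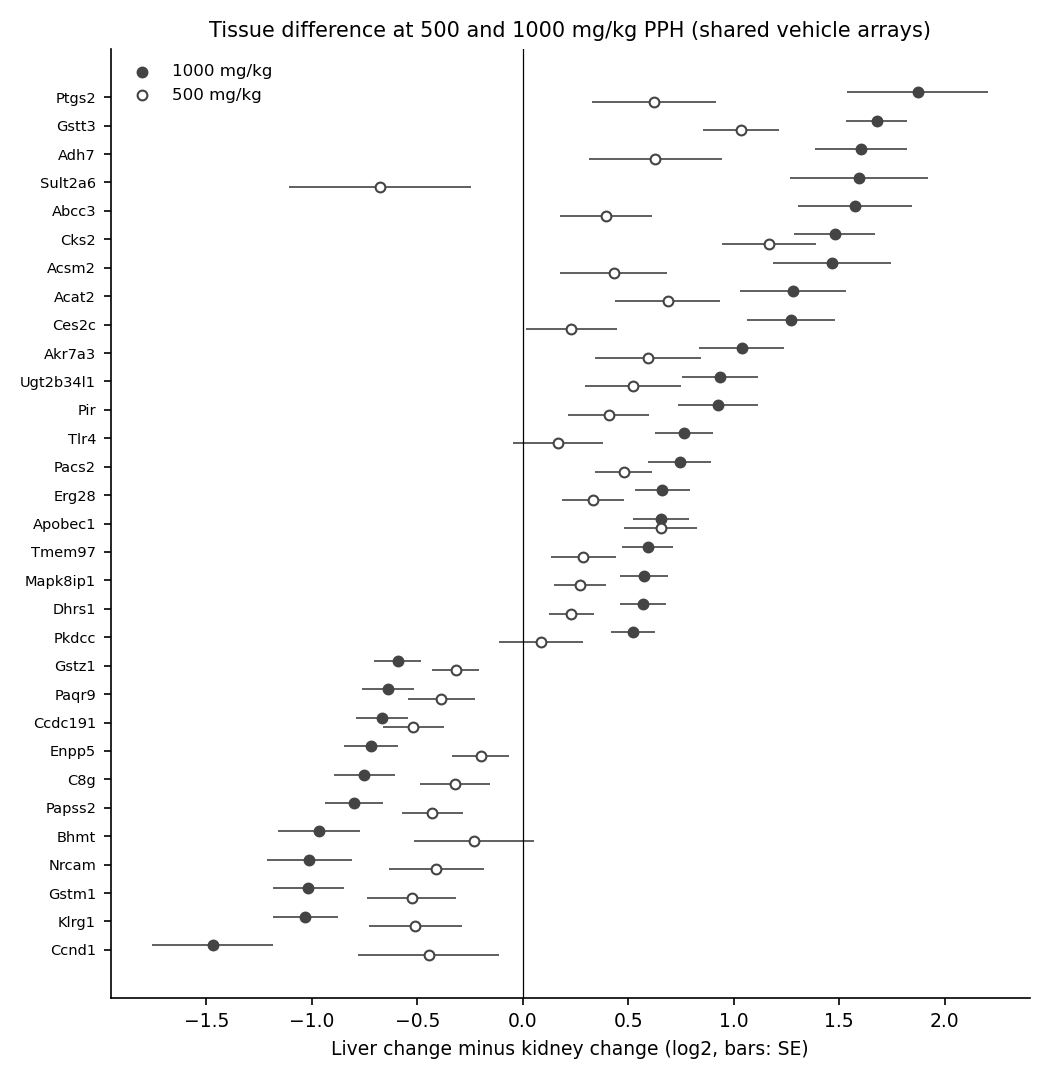
Liver change minus kidney change in log2 units, with SE bars, for the 31 genes whose difference was called at 1000 mg/kg (filled), beside the values at 500 mg/kg (open), which share the vehicle arrays. For 6 of them, Adh7, Klrg1, Nrcam, Ptgs2, Sult2a6 and Ugt2b34l1, 1 organ had fewer than 3 arrays above the filter value. Gstt3 and Cks2 are the 2 differences also called at 500 mg/kg, at 1.03 and 1.17.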

How the data were processed

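The authors deposited log2 values of 31099 probe sets, made with RMA per the submitters' processing notes. The version and whether tissues were processed together are not given in the sources used here. From the 20832 probe sets with 1 gene each, the brightest by its mean in these 18 arrays was kept for every gene (14218 genes). A gene was tested when at least 3 of the 18 arrays exceeded the 40th percentile of all values (4.67), which left out 2534. limma 3.58.1 (in R 4.3.3) fitted the 4 group means with lmFit and eBayes, with two-sided tests, Benjamini-Hochberg adjustment over the 11684 genes and 95% intervals. The 500 mg/kg contrasts came from a fit of all 49 PPH arrays in 12 groups. The number of arrays limits the precision. In data simulated with this layout, 36.4% of differences of 0.5 log2 units and 85.4% of those of 1 were recovered, with 4.2% false calls. The simulation drew independent noise for each gene and array and changed 200 genes in liver alone. Spread that genes share within an array, and a pairing of the organs, were left out, so these rates need not hold for the measured arrays.

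Members and lists were chosen with earlier results of these data known. Named genes were the largest changes of each class, up to 8 a direction, the largest differences of opposite sign and up to 3 called members of each list by adjusted p. The remaining genes with a called difference or a shared call, uncalled list members and markers were named after their values were seen. Alternatives were no filter, genes measured in both tissues, all probe sets averaged, a further quantile normalization, array weights, a variance per tissue, all PPH doses in 1 fit, the replicate number as a block, an intensity trend, single tissues and each array left out. The arrays of 2 vehicle kidneys were left out as an alternative chosen after seeing the data. So were the counts of 4 gene lists with each array left out.
Promoter sequences are from RefSeq (GRCr8).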

Additional observations from a re-analysis of the deposited data

Results flagged for a closer look

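Liver and kidney changes at 1000 mg/kg PPH differed by limma's test of the difference itself for 31 genes. The difference (liver change minus kidney change, log2 units) was above 0 for 20, in order Ptgs2 1.87, Gstt3 1.68, Adh7 1.60, Sult2a6 1.59, Abcc3 1.57, Cks2 1.48, Acsm2 1.47, Acat2 1.28, Ces2c 1.27, Akr7a3 1.04, Ugt2b34l1 0.94, Pir 0.93, Tlr4 0.76, Pacs2 0.74, Erg28 0.66, Apobec1 0.65, Tmem97 0.59, Mapk8ip1 0.58, Dhrs1 0.57 and Pkdcc 0.52. It was below 0 for 11, which were Ccnd1 −1.47, Klrg1 −1.03, Gstm1 −1.02, Nrcam −1.01, Bhmt −0.96, Papss2 −0.80, C8g −0.75, Enpp5 −0.72, Ccdc191 −0.67, Paqr9 −0.64 and Gstz1 −0.59. Ptgs2 in liver, and Adh7, Sult2a6, Ugt2b34l1, Klrg1 and Nrcam in kidney, exceeded the filter value in fewer than 3 arrays. A change could be missed there, and the class of these genes describes the other organ alone.

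Single arrays stood apart from the other arrays of their group by Dixon's criterion in 13 of 312 groups of 4 or 5 arrays, over 78 genes, where chance gives about 1 in 20. Among vehicle livers, Acat2 was at 8.19 in PPH-203 (others 8.89 to 9.17), Ccna2 at 5.00 in PPH-205 (4.29 to 4.46), Slpi at 9.69 in PPH-205 (9.02 to 9.19) and Pttg1 at 6.28 in PPH-202 (6.62 to 6.74). Treated liver PPH-236 had Mvk at 9.42 (others up to 9.05), and treated liver PPH-233 had Paqr9 at 10.29 (9.91 to 9.93). Among vehicle kidneys, Ccnb2 was at 6.335 in PPH-208 (6.66 to 6.80), Enpp5 at 10.67 in PPH-203 (10.47 to 10.52) and Eri2 at 9.58 in PPH-206 (9.71 to 9.75). Among treated kidneys, Cdkn3 was at 4.68 in PPH-236 (5.50 to 5.53), C8g at 7.06 in PPH-237 (7.32 to 7.37), Cyp3a23-3a1 at 3.56 in PPH-233 (2.73 to 2.86) and Slc2a2 at 10.17 in PPH-234 (9.60 to 9.66).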

How the results depend on the processing

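Counts of differences moved with the processing more than the organs' own counts, and none of the 31 differences, 62 liver changes or 39 kidney changes of named genes reversed in any alternative. Calls were lost in 383 of 892 gene and alternative pairs for differences, 167 of 1787 for liver changes and 80 of 1126 for kidney changes. The 31 differences became 20 with no filter, 94 with all PPH doses in 1 fit (27 in common), 63 with an intensity trend (31 in common) and 8 without vehicle kidneys PPH-205 and PPH-206 (6 in common). The share of genes called in liver, 1.86%, became 0.548% with only liver arrays in the fit. The share called in kidney, 1.39%, became 2.2% with all doses, 0.899% with only kidney arrays and 0.599% without those 2 kidneys. Liver-only genes (20) numbered 12 with no filter, 55 with all doses, 37 with the trend and 5 without the 2 kidneys. Kidney-only genes (10) numbered 17 when genes had to be measured in both tissues, 24 with all doses, 21 with the trend and 3 without the 2 kidneys. Shared rises (5) numbered 2 with probe sets averaged, 11 with the trend and 1 without the 2 kidneys, and shared falls (19) numbered 10 with all doses. Opposite genes (0) numbered 1 with all doses and 1 with the trend. A further quantile normalization gave 31 differences, of which 16 were higher and 15 lower (51.6% against 64.5% higher), and put 54.5% against 65% of the liver calls higher. With 1 array left out, counts ran from 5 to 45 for differences, 1 to 6 for shared rises, 11 to 20 for shared falls, 0 to 1 for opposite, 4 to 31 for liver-only, 1 to 21 for kidney-only, and 0 to 3 for differences at 500 mg/kg, and shares called from 0.762% to 1.94% in liver and 0.71% to 2.41% in kidney. With the replicate number as a random block, the difference count was 73 (31 in common), with 35 liver-only and 21 kidney-only genes, and it was 13 as a fixed block (5 in common). The labels do not say that a number marks an animal. Same-numbered arrays correlated between 0.073 and 0.241 (5 of 8 over 0.1). The consensus correlation of the block fit, taken after the 4 group means were removed, was 0.0968. Pairing was not assumed in the main fit, although 7 of 8 correlated best with their own number. That fit treats the arrays as independent and may leave out a pairing. Causes of these moves were not tested. Low signal limits Adh7, Sult2a6, Ugt2b34l1, Klrg1, Nrcam, Ptgs2, Cyp3a23-3a1 and Kif11, each near background in 1 organ.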

Other observations

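Genes of glucose, amino acid and lipid metabolism outside the classes changed in 1 organ by limma with differences that did not pass. Gpt, the alanine aminotransferase, rose in liver (1.00 log2 units, adjusted p = 0.00868) and was at 0.41 in kidney. Pc, the pyruvate carboxylase that starts gluconeogenesis, fell in liver (−0.43) and was at 0.12 in kidney (adjusted p of the difference 0.0562). Slc2a2, the glucose transporter GLUT2, fell in kidney (−0.53) and was at −0.12 in liver. Of 19 fatty acid synthesis genes, Me1 and the acetyl-CoA synthetase Acss2 rose in liver (0.80 and 0.70), while the elongases Elovl2 and Elovl5 fell (−0.39 and −0.34). Over all genes, 1.21% were called higher and 0.65% lower in liver. In kidney 0 of the 19 were called, beside 1.39% of all genes. At an unadjusted p under 0.05 there were 4 in kidney, beside 1480 of the 11684 genes tested.

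In the growth hormone axis, the receptor Ghr and Igfals, which carries IGF1 in blood, fell in liver (−0.42 and −0.54) and were at −0.07 and −0.30 in kidney. They were the 2 of 15 list members called lower in liver, beside 0.65% of all genes, and 7 of the 15 had a liver estimate above 0. A second probe set of Ghr gave −0.14 in liver and 0.20 in kidney. Krt19, a keratin of ducts and injured tubules, was the 1 of 16 tubule injury genes called in kidney (1.04, adjusted p = 0.0219, limma). Over all genes 1.39% were called in kidney. Lists of ER stress (30 genes), interferon response (23), the circadian clock (18) and glucocorticoid targets (15) had 0 calls in either organ by limma. At an unadjusted p under 0.05 they had 4, 1, 2 and 1 genes in liver and 3, 2, 0 and 3 in kidney. Over the 11684 genes tested there were 1728 in liver and 1480 in kidney.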
